A study of Homo sapiens with 15 samples.

Results

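The genes described here are the nuclear genes of the mitochondrial respiratory chain and ATP synthase that the deposited table lists under the NDUF, SDH, UQCR, COX and ATP5 symbols. Members were chosen by symbol alone, as NDUFA, NDUFB, NDUFC, NDUFS or NDUFV followed by a number, COX4 to COX8 with an optional letter and number, UQCR, SDHA to SDHD, and ATP5, with a mean of at least 20 raw counts over the 15 libraries. Of the 25737 entries of the table, 84 matched by symbol and 79 reached the mean. All 79 were among the 12870 genes tested. By their standard assignment, 36 encode subunits of complex I, 4 of complex II, 8 of complex III, 10 of complex IV and 15 of complex V, which makes 73 subunit genes. The other 6 entries are 2 processed pseudogenes (ATP5EP2, UQCRBP1), 2 near copies (UQCRHL, ATP5L2) and 2 genes that are not standard subunits (ATP5S, ATP5SL). The rule does not take COX4I1 or CYC1, and both are given below with the other genes of the pathway.

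The cells were U87MG, an established human glioblastoma line, collected 24 h after lentiviral transduction. The comparison is of cells given vectors for the ID family, HLH proteins that bind E proteins and lack a DNA-binding region, with control cells. The control group received a GFP vector, and the other 4 groups received a vector for overexpression of ID1, ID2, ID3 or ID4, with 3 libraries in each of the 5 groups. All groups therefore carry a lentivirus, and the promoter of the vectors is not given in the sources used here. The labels do not say whether the 3 libraries of a group came from separate cultures, so p-values measure only the spread between these libraries. Read counts of the overexpressed gene did not follow every label. ID1 was at 345 ± 8.18 CPM (SD, n = 3) with GFP and 248 ± 2.42 in the libraries labelled ID1, and ID2 was at 85.9 ± 1.94 with GFP and 45.6 ± 1.57 in the libraries labelled ID2. ID3 was at 221 ± 6.02 with GFP and 309.8 ± 11.9 in the libraries labelled ID3, and ID4 rose from 0.0789 ± 0.0838 with GFP to 223 ± 12.2 in the libraries labelled ID4. The rise of ID3 was not confined to its label, with means of 182, 291 and 207 CPM with ID1, ID2 and ID4. The fall of ID2 was not either, with means of 34.1, 46.2 and 35.97 CPM with ID1, ID3 and ID4. Mean ID1 was 320, 325 and 281 CPM with ID2, ID3 and ID4. Outside its own label, ID4 reached at most 0.743 CPM in a library. Whether transcripts of the vectors were counted under these genes was not tested, and low counts do not exclude overexpression. Group names below are therefore labels. Some results were recomputed without the 3 sets of libraries that carry the same replicate number, 1 library of each group at a time. Libraries held 11089044 to 15148979 counts, and the 79 genes took 1.66% to 1.75% of each. Of 7 glioma markers, VIM, CD44, FN1 and S100A6 were at 504 CPM or more in every library, TNC at 131 to 372, CHI3L1 at 19.8 to 61.6 and NES at 16.4 to 29.9 CPM. Of the markers of other cell types, SNAP25 (6.17 to 32.8 CPM), CD68 (49.6 to 74.3 CPM) and EPCAM (0.270 to 1.11 CPM) were measured, and the rest reached at most 0.677 CPM, with AQP4 at 0 counts in all libraries.

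Complexes I to IV sit in the inner mitochondrial membrane and pass electrons from NADH and succinate through ubiquinone and cytochrome c to oxygen, and complexes I, III and IV pump protons as they do so. Complex V, the ATP synthase, lets the protons flow back and makes ATP. Complex II is built from nuclear genes alone, whereas the other complexes combine nuclear subunits with subunits encoded in mitochondrial DNA, which were not analysed here. Glioblastoma cells are known for a high use of glycolysis even when oxygen is present, so the level of respiratory genes is often followed in this tumor.

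Levels are given in CPM, the usual depth-scaled read count, with library totals scaled by the TMM method. QuantSeq reads start at the 3′ ends of transcripts, so counts were not divided by gene length. The summed level of the 79 genes was 17175.5 ± 136 CPM (SD, n = 3) with GFP, 17002 ± 155 with ID1, 17288 ± 265 with ID2, 16724.5 ± 489.96 with ID3 and 17203 ± 78.9 with ID4. The groups overlapped in this sum, and the largest difference of a group mean from GFP was -2.63% with ID3. Single members differed more than the sum did. A member is called here when its adjusted p is under 0.05 in the quasi-likelihood test of edgeR, adjusted over all 12870 genes by the method of Benjamini and Hochberg. With ID1, 5 members rose and 4 fell, which is 11.4% of the 79 against 22.1% of all tested genes (12.4% higher and 9.73% lower). With ID2, 18 rose and 13 fell, 39.2% against 35.1% of all genes (18.5% higher and 16.7% lower). With ID3, 8 rose and 14 fell, 27.8% against 28.6% (15.1% higher and 13.5% lower), and with ID4, 8 rose and 6 fell, 17.7% against 21.6% (12.1% higher and 9.51% lower). The share of members called was thus below that of all genes with ID1, and near it with the other labels. Counts moved when libraries were left out, to 14 with ID1 without those numbered 3, to 18 with ID2 without those numbered 2, and with ID3 and ID4 to 10 and 5 without those numbered 1, and to 9 and 6 without those numbered 2. When only the 2 groups compared were fitted, 17 were called with ID1 and 20 with ID2.

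Changes of the respiratory genes were small. Their median log2 fold change was -0.03 with ID1, 0.03 with ID2, -0.02 with ID3 and -0.03 with ID4, and the median over all tested genes lay between -0.004 and 0.001. The median size of a change was 0.09, 0.12, 0.12 and 0.10 in the same order, against 0.16, 0.21, 0.18 and 0.16 for all genes. A log2 change over 0.5 in either direction was reached by NDUFA4 with ID1, by NDUFA4 and NDUFA9 with ID2, by NDUFA4 with ID3 and by no member with ID4, whereas 11.8%, 17.1%, 13.4% and 12.03% of all genes reached it. Members had mean counts of 100.6 or more, whereas the tested genes include lower ones, such as PPARGC1A with 2 to 45 counts per library. No background matched by level was used, and the part of level in these contrasts was not tested. The median coefficient of variation within a group was 4.84%, from 2.60% for COX6A1 to 19.7% for SDHD. The 4 comparisons share the 3 GFP libraries, so their values are set side by side below and are not independent of each other. The direction of the calls depended on scaling in 2 comparisons. With CPM scaled by the library total alone, 8 members rose and 3 fell with ID1, and 10 rose and 9 fell with ID3.

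**Figure D1:**
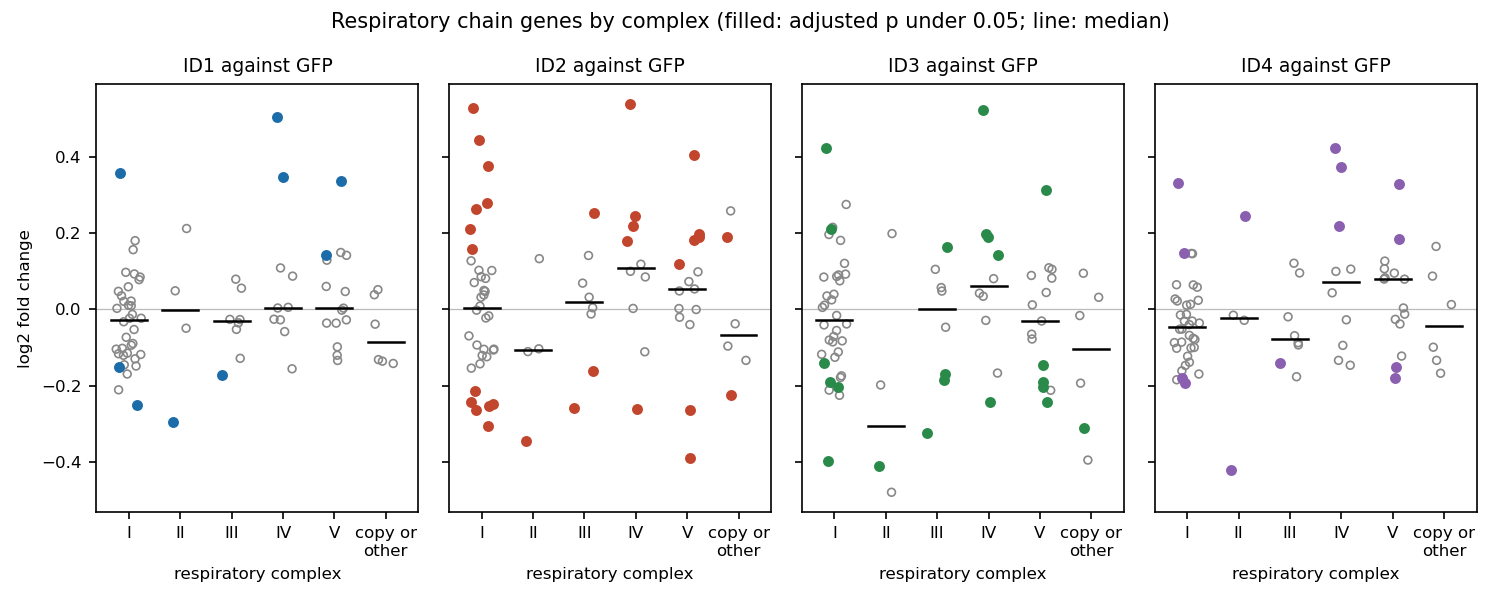
Log2 fold change against GFP of the 79 genes, grouped on the x axis by complex, with 1 panel for each ID label. Filled points have an adjusted p under 0.05, open points do not, and the black line is the median of the group. Points over 0.5 are NDUFA4 with ID1, ID2 and ID3 and NDUFA9 with ID2, and every complex holds points on both sides of 0 in each panel.

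Of the 16 tested genes of the matrix arm of complex I, which oxidizes NADH and reduces ubiquinone, 1 rose and 0 fell with ID1, 4 rose and 3 fell with ID2, 1 rose and 1 fell with ID3, and 1 rose and 1 fell with ID4. The share called was 6.25%, 43.8%, 12.5% and 12.5% with ID1 to ID4, against 22.1%, 35.1%, 28.6% and 21.6% of all tested genes. NDUFA9 (chr12:4758261-4803483 of GRCh37), an accessory subunit near the ubiquinone site, was the member of this arm with the largest rise. It was measured at 57.8, 58.6 and 57.2 CPM with GFP, 77.2, 78.6 and 66.5 with ID1, 81.7, 77.3 and 91.5 with ID2, 79.2, 80.5 and 73.0 with ID3, and 71.8, 72.8 and 73.7 with ID4. All 12 libraries of the ID groups lay above the 3 GFP libraries, which were close together. The log2 fold changes of NDUFA9 were 0.36 with ID1, 0.53 with ID2, 0.42 with ID3 and 0.33 with ID4 (standard error 0.07; adjusted p = 0.000817, 4.63e-06, 0.000113 and 0.00182 in this order). Without the libraries numbered 1 the call with ID1 was lost (adjusted p = 0.0503). Genes around NDUFA9 on chromosome 12 were also higher, as described below.

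Of the core subunits of the matrix arm that carry electrons, NDUFS1 and NDUFS8 are among the lower members. NDUFS7, another such subunit, was at 44.6 CPM with GFP and 39.6, 44.8, 51.7 and 40.3 with ID1 to ID4. NDUFS1, the largest iron-sulfur subunit of the module that takes electrons from NADH, fell with ID2, from 36.2, 31.4 and 33.9 CPM with GFP to 26.4, 31.3 and 26.9. Its log2 fold change was -0.26 (adjusted p = 0.0173), and the call was lost without the libraries numbered 1 or 3 (adjusted p = 0.256 and 0.093). NDUFS1 values with ID3 and ID4 were -0.21 and -0.16, past no threshold. NDUFA12, an accessory subunit of the same arm, was at 46.2, 51.3 and 41.4 CPM with GFP and 39.5, 35.9 and 36.9 with ID2, without overlap (log2 fold change -0.31, adjusted p = 0.00653; 0.201 without the libraries numbered 2). NDUFS8, a core subunit with iron-sulfur clusters on the way to ubiquinone, fell with ID4 from 168, 160.2 and 148 to 138, 132 and 147 CPM (log2 fold change -0.19, adjusted p = 0.0319). That call was lost without the libraries numbered 1 or 2 (adjusted p = 0.283 and 0.291). With ID2, 3 further accessory genes rose, named after their values were seen. They are NDUFA7 (0.38), NDUFA5 (0.28) and NDUFA2 (0.21), with adjusted p = 0.00063, 0.000419 and 0.00928, and the NDUFA2 call was lost without the libraries numbered 1 (adjusted p = 0.168).

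In the membrane arm of complex I, which pumps protons, 20 genes were tested. Of these, 0 rose and 2 fell with ID1, 3 rose and 3 fell with ID2, 1 rose and 3 fell with ID3, and 1 rose and 1 fell with ID4. As shares these are 10%, 30%, 20% and 10%, against 22.1%, 35.1%, 28.6% and 21.6% of all tested genes. NDUFB8 (chr10:102283497-102289757), an accessory subunit whose protein is often used as a marker of assembled complex I, was measured at 353, 352 and 342 CPM with GFP, 301, 291 and 288 with ID1, 275, 287 and 316 with ID2, 337, 337 and 314 with ID3, and 334, 326 and 331 with ID4. Both the ID1 and the ID2 libraries lay below all GFP libraries, and so did the ID3 and ID4 libraries by a smaller margin. Its log2 fold changes were -0.25 with ID1, -0.25 with ID2, -0.08 with ID3 and -0.08 with ID4 (standard error 0.05; adjusted p = 0.00108, 0.000585, 0.253 and 0.316), so only the first 2 passed the threshold. NDUFB8 was also lower with ID2 than with ID3 (-0.17, adjusted p = 0.0294) and than with ID4 (-0.17, adjusted p = 0.0225). Both differences lost their call without the libraries numbered 1 (adjusted p = 0.368 and 0.273) or 2 (adjusted p = 0.322 and 0.184).

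NDUFB2 (chr7:140390577-140422590), another accessory subunit of this arm, had the opposite direction. It was measured at 194, 196 and 199.6 CPM with GFP, 214, 209 and 208 with ID1, 265, 251 and 285 with ID2, 222, 238 and 223 with ID3, and 213, 222 and 219 with ID4. The ID2 libraries were the highest 3 of the 15, and every ID library was above every GFP library. The log2 fold changes of NDUFB2 were 0.10 with ID1, 0.44 with ID2, 0.21 with ID3 and 0.15 with ID4 (standard error 0.05; adjusted p = 0.204, 6.29e-07, 0.00363 and 0.0453), so ID1 did not pass. The calls with ID3 and ID4 were lost without the libraries numbered 2 (adjusted p = 0.0881 and 0.238), and that with ID4 also without those numbered 1 or 3 (adjusted p = 0.198 and 0.0754). NDUFB2 was higher with ID2 than with ID3 by 0.23 and than with ID4 by 0.29 (adjusted p = 0.00359 and 0.000289), the former not without the libraries numbered 1 or 3 (adjusted p = 0.0839 and 0.0565).

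NDUFB1, a small single-pass subunit, was measured at 183, 183 and 173 CPM with GFP, 164, 158 and 164 with ID1, 192, 197 and 213 with ID2, 179, 181 and 184 with ID3, and 181, 182 and 186 with ID4. The ID1 libraries were the lowest of the 15 and the ID2 libraries the highest, with GFP, ID3 and ID4 between them. NDUFB1 fell with ID1 (log2 fold change -0.15, adjusted p = 0.0348) and rose by 0.16 on that scale with ID2 (adjusted p = 0.0183). Both calls were lost when libraries were left out, with ID1 without those numbered 1 or 2 (adjusted p = 0.165 and 0.34) and with ID2 without those numbered 2 or 3 (adjusted p = 0.0799 and 0.321).

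NDUFA1, a subunit needed for assembly of the membrane arm, had the highest mean CPM of complex I. Its level was 454, 469.5 and 499 CPM with GFP and 368, 415 and 454 with ID3, where the highest ID3 library lay level with the lowest GFP library (log2 fold change -0.20, adjusted p = 0.0314). The call was lost without the libraries numbered 1 or 2 (adjusted p = 0.21 and 0.137), and NDUFA1 values with the other labels were -0.01, 0.05 and 0.01. NDUFB4, an accessory subunit of the same arm, fell with ID3 and ID4 (log2 fold changes -0.19 and -0.18, adjusted p = 0.025 and 0.0438), from 111, 114 and 102 CPM with GFP to 93.8, 91.1 and 101 and 94.8, 99.1 and 94.6. Neither call held without the libraries numbered 1 (adjusted p = 0.225 and 0.293) or 2 (adjusted p = 0.315 and 0.197). NDUFB9 fell with ID2 (-0.24) and ID3 (-0.14), NDUFA8 fell with ID2 (-0.25), and NDUFA13 rose with ID2 (0.26). These 3 were named after their values were seen (adjusted p = 0.000422, 0.0338, 0.0044 and 0.0475). Their calls were lost for NDUFB9 with ID3 without any 1 of the 3 numbers (adjusted p = 0.231, 0.115 and 0.0564), for NDUFA8 without the libraries numbered 1 (adjusted p = 0.134) and for NDUFA13 without those numbered 2 or 3 (adjusted p = 0.084 and 0.624).

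Complex II, succinate dehydrogenase, also belongs to the citric acid cycle, and its catalytic gene fell in every comparison with GFP. SDHA (chr5:218418-257197), the flavoprotein that oxidizes succinate, was measured at 160.2, 156 and 154 CPM with GFP, 125, 130.0 and 129 with ID1, 117, 126 and 128 with ID2, 114, 120.5 and 119.8 with ID3, and 112, 119 and 121 with ID4. All 12 ID libraries lay below the 3 GFP libraries. SDHA log2 fold changes were -0.29 with ID1, -0.34 with ID2, -0.41 with ID3 and -0.42 with ID4 (standard error 0.05; adjusted p = 0.000294, 2.72e-05, 4.75e-06 and 4.60e-06), and all 4 calls held with each set of libraries left out. No pair of ID groups differed in SDHA past the threshold.

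Of the other complex II genes, SDHC with ID4 was the sole call. SDHB, the iron-sulfur subunit, was measured at 48.9, 44.8 and 48.1 CPM with GFP, 47.4, 49.2 and 50.1 with ID1, 44.9, 49.7 and 36.7 with ID2, 43.8, 37.1 and 42.7 with ID3, and 41.9, 49.3 and 49.2 with ID4. Its libraries overlapped those of GFP with ID1, ID2 and ID4, and its log2 fold changes were 0.05 with ID1, -0.11 with ID2, -0.20 with ID3 and -0.02 with ID4 (adjusted p = 0.778, 0.391, 0.123 and 0.935). SDHC, a membrane anchor, had log2 fold changes of 0.21 with ID1, 0.13 with ID2, 0.20 with ID3 and 0.24 with ID4 (adjusted p = 0.0518, 0.196, 0.0574 and 0.0268) and rose past the threshold with ID4 alone, from 77.4, 82.4 and 83.1 to 90.3, 102 and 95.6 CPM. That call was lost without the libraries numbered 1 or 2 (adjusted p = 0.0645 and 0.203). SDHD, the second anchor, was the lowest of the 4 at 10.7, 9.01 and 9.56 CPM with GFP, and its libraries spread widely, with 10.9, 12.2 and 4.17 with ID2. The SDHD value of -0.48 with ID3 did not pass the threshold (standard error 0.24, adjusted p = 0.154).

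Near copies of SDHA share most of its sequence, so the assignment of some reads between them is uncertain. SDHAP3, a copy on the same arm of chromosome 5, was measured at 46.2, 45.7 and 47.7 CPM with GFP and had log2 fold changes of -0.28 with ID1, -0.44 with ID2, -0.56 with ID3 and -0.40 with ID4 (adjusted p = 0.0054, 3.30e-05, 2.34e-06 and 0.000202). The copies SDHAP1 and SDHAP2, on chromosome 3, were at 3.19 ± 0.289 and 5.21 ± 1.31 CPM with GFP, and their values of 0.31 and 0.06 with ID1, and 0.20 and 0.22 with ID4, passed no threshold. The SDHAP3 call with ID1 was lost without the libraries numbered 1 (adjusted p = 0.0909). How far the SDHAP3 entry holds reads of SDHA was not tested.

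SDHA fell while its neighbours stayed near 0, and COX5A, described below, rose together with its neighbours. The 120 bases before the start of SDHA and of COX5A are shown, from RefSeq on GRCh38.p14. They are chr5:218200-218319 on the plus strand and chr15:74938074-74938193 on the minus strand, 5′ to 3′, with each TGCGCA in capitals, a part of the site known for the factor NRF1 that reads the same on both strands.
SDHA: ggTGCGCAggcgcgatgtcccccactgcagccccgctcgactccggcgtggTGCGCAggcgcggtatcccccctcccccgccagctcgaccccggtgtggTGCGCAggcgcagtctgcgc
COX5A: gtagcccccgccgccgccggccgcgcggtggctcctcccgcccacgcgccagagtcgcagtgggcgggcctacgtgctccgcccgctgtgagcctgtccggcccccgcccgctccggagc
In the 300-base window from 250 bases before to 50 after the start, SDHA held TGCGCA at 5 places, beginning at -167, -118, -69, -20 and -5 from the start, and COX5A held none. All but the last of these places lie at even spacing. The 3 in capitals are the middle ones, since the first lies before the printed stretch and the last runs past its end. These letters were searched after the SDHA window had been seen. Of the 61 members with a window in the table, 31.1% held TGCGCA, against 8.42% of 27305 windows of all genes. The longer NRF1 letters GCATGCGC were in 21.3% of the members and 3.27% of all windows, CCGGAAG (ETS and GABP factors) in 29.5% and 10.7%, and AAGATGG (YY1) in 26.2% and 6.06%, on either strand. GCATGCGC and TGCGCA share the letters TGCGC, so their hits can overlap. Neither SDHA nor COX5A held GCATGCGC, CCGGAAG or AAGATGG. NDUFA9, which rose with each label, held TGCGCA at -75. A link between these letters and the changes of the genes was not tested.

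Of the 8 genes of complex III, which passes electrons from ubiquinol to cytochrome c, 0 rose and 1 fell with ID1, 1 rose and 2 fell with ID2, 1 rose and 3 fell with ID3, and 0 rose and 1 fell with ID4. That is 12.5%, 37.5%, 50% and 12.5% called, against 22.1%, 35.1%, 28.6% and 21.6% of all tested genes. UQCRB (chr8:97235175-97247774), a ubiquinone-binding subunit, had the highest mean CPM of this complex. It was measured at 1207, 1196 and 1229 CPM with GFP, 1056, 1056 and 1113 with ID1, 1021, 1027 and 986 with ID2, 918, 993 and 989.6 with ID3, and 1114, 1045 and 1134 with ID4. No ID library reached the GFP range, and the ID2 and ID3 libraries were the lowest 6. The log2 fold changes of UQCRB were -0.17 with ID1, -0.26 with ID2, -0.32 with ID3 and -0.14 with ID4 (standard error 0.05; adjusted p = 0.0085, 0.000118, 1.31e-05 and 0.0301). Without the libraries numbered 1, the calls with ID1 and ID4 were lost (adjusted p = 0.0764 and 0.0861), and likewise without those numbered 2 (adjusted p = 0.103 and 0.281). UQCRB was lower with ID3 than with ID4 (log2 difference -0.18, adjusted p = 0.0115), though not past the threshold without those numbered 1 or 2 (adjusted p = 0.243 and 0.0579).

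The processed pseudogene UQCRBP1 on chromosome X was measured at 276, 279.5 and 306 CPM with GFP and 209, 236 and 249.5 with ID3. Its log2 fold changes were -0.13 with ID1, -0.22 with ID2, -0.31 with ID3 and -0.13 with ID4 (adjusted p = 0.151, 0.00802, 0.000733 and 0.146), close to those of UQCRB, with which it can share reads. The call with ID2 was lost without the libraries numbered 3 (adjusted p = 0.0825). UQCRQ, a small subunit named after its values were seen, rose with ID2 (0.25, adjusted p = 0.000838) and ID3 (0.16, adjusted p = 0.0269). Of the other called genes, UQCRH, the hinge subunit that meets cytochrome c, fell with ID2 (log2 fold change -0.16), and the core subunit UQCRC1 and the Rieske iron-sulfur subunit UQCRFS1 fell with ID3 (-0.19 and -0.17). With the libraries numbered 1 or 2 left out, the calls of UQCRH with ID2 and of UQCRQ, UQCRC1 and UQCRFS1 with ID3 were lost (adjusted p = 0.183, 0.0849, 0.18 and 0.447 without those numbered 1, and 0.295, 0.254, 0.164 and 0.0711 without those numbered 2), and that of UQCRC1 also without those numbered 3 (adjusted p = 0.0902).

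Complex IV, cytochrome c oxidase, holds the member with the largest rise in each comparison with GFP. Of its 10 genes among the members, 2 rose and 0 fell with ID1, 4 rose and 1 fell with ID2, 4 rose and 1 fell with ID3, and 3 rose and 0 fell with ID4. The share called was 20%, 50%, 50% and 30%, against 22.1%, 35.1%, 28.6% and 21.6% of all tested genes. NDUFA4 (chr7:10971570-10979780), named as a complex I subunit but now placed in complex IV, was measured at 185, 167 and 166 CPM with GFP, 244, 240.3 and 251 with ID1, 236, 279 and 238 with ID2, 246, 249.7 and 249.7 with ID3, and 239, 221 and 234 with ID4. All 12 ID libraries lay above all GFP libraries, and the ID1, ID2 and ID3 libraries overlapped each other. NDUFA4 log2 fold changes were 0.50 with ID1, 0.54 with ID2, 0.52 with ID3 and 0.42 with ID4 (standard error 0.06; adjusted p = 2.57e-06, 5.34e-07, 1.33e-06 and 2.89e-05), and each call held with any set of libraries left out. The paralogue NDUFA4L2, known as a hypoxia-responsive gene, had 37 to 94 counts per library and log2 fold changes of -0.57 with ID1, -0.41 with ID2, -0.70 with ID3 and -0.77 with ID4 (adjusted p = 0.0288, 0.0811, 0.00671 and 0.0051). Its calls with ID1, ID3 and ID4 were lost without the libraries numbered 2 (adjusted p = 0.257, 0.0874 and 0.129).

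COX5A (chr15:75212132-75230424), a subunit on the matrix side of complex IV, was measured at 92.0, 82.7 and 88.5 CPM with GFP, 111, 109.8 and 114 with ID1, 104, 109 and 99.8 with ID2, 92.6, 102 and 106 with ID3, and 113, 114 and 114 with ID4. The ID1 and ID4 libraries were the highest, and the lowest ID3 library lay just above the highest GFP library. COX5A rose by 0.35 with ID1, 0.25 with ID2, 0.19 with ID3 and 0.37 with ID4 (standard error 0.06; adjusted p = 0.000165, 0.00262, 0.0208 and 8.57e-05). The call with ID2 was lost without the libraries numbered 2 (adjusted p = 0.134), and that with ID3 without those numbered 2 or 3 (adjusted p = 0.275 and 0.131). COX6C, the member of complex IV with the highest mean CPM, was measured at 463, 474 and 515 CPM with GFP, 465, 454 and 476 with ID1, 442, 431 and 339 with ID2, 369.6, 411 and 447 with ID3, and 457, 451 and 452 with ID4. The library numbered 3 of ID2 was the lowest, far from the other 2 of its group. COX6C fell with ID2 and ID3 (log2 fold changes -0.26 and -0.24, adjusted p = 0.011 and 0.0212), and without the libraries numbered 3 the call with ID2 was lost (adjusted p = 0.181). The call with ID3 did not hold without those numbered 1 or 2 (adjusted p = 0.143 and 0.12). COX7B rose by 0.22, 0.20 and 0.22 with ID2, ID3 and ID4 (adjusted p = 0.023, 0.0469 and 0.036) and was named after its values were seen. None of these calls of COX7B held without the libraries numbered 2 (adjusted p = 0.11, 0.425 and 0.0892), and likewise without those numbered 3 (adjusted p = 0.295, 0.053 and 0.0908).

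Some subunits of complex IV have a form for heart and muscle and a form for other tissues. The other-tissue forms were measured here, COX6A1 at 117 ± 4.58 CPM with GFP, COX6B1 at 118 ± 3.01 and COX7A2 at 152 ± 3.99. The muscle forms COX6A2 and COX7A1, the testis form COX6B2, and COX7B2 and COX8C had 0 to 3 counts in every library and were the 5 genes below the minimum. The member just above the minimum was ATP5S, with a mean of 100.6 counts, and the highest mean below it was 0.733, of COX6B2 and COX7A1. COX6A1 was not called in any comparison with GFP (log2 fold changes -0.03 with ID1, 0.00 with ID2, -0.03 with ID3 and -0.13 with ID4, adjusted p = 0.777, 0.976, 0.732 and 0.0756). COX6B1 rose with ID2 alone (0.18, adjusted p = 0.0186), and COX7A2 with ID3 alone (0.14, adjusted p = 0.0489). The COX6B1 call was lost without the libraries numbered 2 or 3 (adjusted p = 0.0855 and 0.31), and the COX7A2 call without any 1 of the 3 numbers (adjusted p = 0.104, 0.264 and 0.156).

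**Figure D2:**
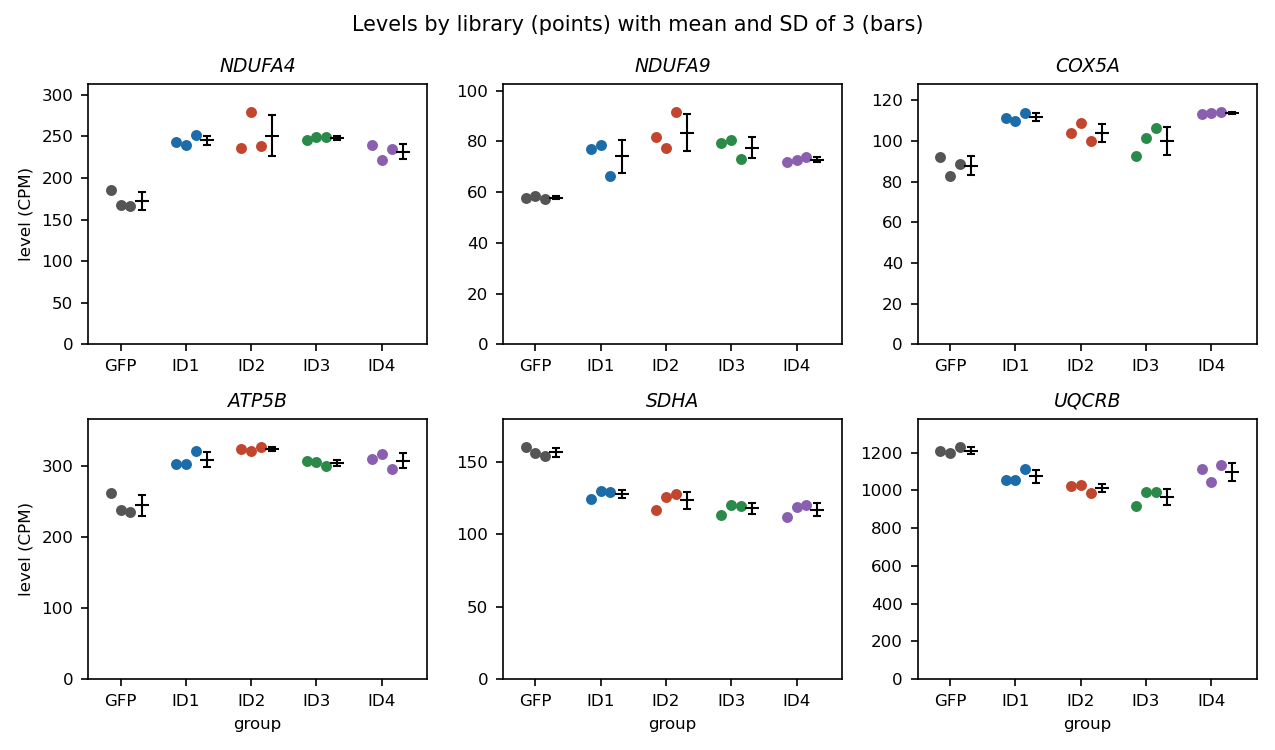
Level in CPM of 6 genes in each library (points) by group, with the mean and SD of 3 libraries as bars. NDUFA4, NDUFA9, COX5A and ATP5B lie above GFP in all 12 ID libraries, and SDHA and UQCRB lie below GFP in all 12.

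In the catalytic head of complex V, 5 genes were tested, of which 1 rose with ID1, 2 with ID2, 1 with ID3 and 1 with ID4, and 0 fell. As shares these are 20%, 40%, 20% and 20%, against 22.1%, 35.1%, 28.6% and 21.6% of all tested genes. ATP5B (chr12:57031959-57039768), the catalytic beta subunit that is now named ATP5F1B, was measured at 262, 238 and 236 CPM with GFP, 303, 304 and 322 with ID1, 325, 322 and 327 with ID2, 308, 306 and 300.2 with ID3, and 311, 318 and 296 with ID4. All 12 ID libraries lay above all GFP libraries, and the ID2 libraries were closest to each other. ATP5B rose by 0.34 with ID1, 0.40 with ID2, 0.31 with ID3 and 0.33 with ID4 (standard error 0.05; adjusted p = 3.17e-05, 1.45e-06, 6.06e-05 and 4.42e-05), and all 4 calls held with each set of libraries left out. The other gene called in the head was ATP5E, the epsilon subunit, with ID2 (0.20, adjusted p = 0.0133). The values of ATP5A1, the alpha subunit that alternates with beta in the head, were 0.13 with ID1, -0.02 with ID2, 0.01 with ID3 and 0.08 with ID4 (adjusted p = 0.199, 0.852, 0.918 and 0.442). ATP5EP2, a processed pseudogene of ATP5E that can share its reads, was also higher with ID2 (0.19, adjusted p = 0.00616). Neither call held without the libraries numbered 2 (adjusted p = 0.121 and 0.0527) or 3 (adjusted p = 0.259 and 0.151).

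Of the 10 genes of the stalk and membrane part of complex V, 1 rose and 0 fell with ID1, 3 rose and 2 fell with ID2, 0 rose and 4 fell with ID3, and 1 rose and 2 fell with ID4. That is 10%, 50%, 40% and 30% called, against 22.1%, 35.1%, 28.6% and 21.6% of all tested genes. The peripheral stalk, which holds the head still while the rotor turns, includes ATP5J, ATP5F1 and, with ID3 alone, ATP5O among the genes called lower. ATP5H (now ATP5PD), also of this stalk, was at 80.0 CPM with GFP and 82.7, 85.7, 69.2 and 80.3 with ID1 to ID4. ATP5J (chr21:27088815-27107984, now ATP5PF), coupling factor of this stalk, was measured at 214, 209 and 207 CPM with GFP, 185, 194 and 195 with ID1, 159.6, 169 and 152 with ID2, 176, 185 and 187 with ID3, and 192, 186 and 189.9 with ID4. The ID2 libraries were the lowest 3 of the 15, and no ID library reached the GFP range. Log2 fold changes of ATP5J were -0.13 with ID1, -0.39 with ID2, -0.20 with ID3 and -0.15 with ID4 (standard error 0.05; adjusted p = 0.0632, 3.14e-06, 0.00449 and 0.0372), and ATP5J was higher with ID1 than with ID2 by 0.26 (adjusted p = 0.00112). Its call with ID3 was lost without the libraries numbered 1 (adjusted p = 0.109), and that with ID4 without any 1 of the 3 numbers (adjusted p = 0.169, 0.223 and 0.0655).

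ATP5F1 (chr1:111991486-112005395, now ATP5PB), subunit b of the peripheral stalk, was at 213, 189 and 184 CPM with GFP, 174, 183 and 192 with ID1, 160.2, 168 and 161 with ID2, 167, 184 and 163 with ID3, and 172, 169 and 176 with ID4. The ID2 libraries were the lowest as a group, and those of ID1 overlapped GFP. Its log2 fold changes were -0.10 with ID1, -0.26 with ID2, -0.19 with ID3 and -0.18 with ID4 (adjusted p = 0.287, 0.00182, 0.0238 and 0.0404). Without the libraries numbered 1, all 3 calls were lost (adjusted p = 0.0746, 0.341 and 0.363 with ID2, ID3 and ID4), and without those numbered 2 the call with ID4 was lost (adjusted p = 0.151). The other genes of this part called lower with ID3 were ATP5O (now ATP5PO), the stalk subunit OSCP, and ATP5J2 (now ATP5MF), subunit f of the membrane part (-0.15 and -0.24, adjusted p = 0.0176 and 0.0368), named after their values were seen. ATP5O lost this call without any 1 of the 3 numbers (adjusted p = 0.136, 0.0613 and 0.0806) and ATP5J2 without those numbered 1 or 2 (adjusted p = 0.263 and 0.232). ATP5L (now ATP5MG), subunit g and the member with the highest mean CPM, was at 1205 ± 56.0 CPM with GFP and 1297 ± 16.8 with ID4. ATP5L passed no threshold against GFP (log2 fold changes 0.06 with ID1, 0.00 with ID2, -0.07 with ID3 and 0.11 with ID4, adjusted p = 0.473, 0.979, 0.391 and 0.164), and the sign of its ID2 value turned with other scalings.

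Subunit c, which forms the rotor ring, is encoded by 3 genes whose mature proteins are the same. ATP5G3 (now ATP5MC3) had the most counts, at 847 ± 35.5 CPM with GFP, ATP5G2 (now ATP5MC2) had 456 ± 24.5 and ATP5G1 (now ATP5MC1) had 202 ± 12.4. Log2 fold changes of ATP5G3 were 0.14 with ID1, 0.12 with ID2, 0.09 with ID3 and 0.08 with ID4 (adjusted p = 0.0278, 0.0447, 0.154 and 0.238), those of ATP5G2 were 0.15 with ID1, 0.18 with ID2, 0.04 with ID3 and 0.18 with ID4 (adjusted p = 0.0708, 0.0177, 0.622 and 0.026), and those of ATP5G1 were -0.04 with ID1, 0.07 with ID2, -0.03 with ID3 and 0.10 with ID4 (adjusted p = 0.789, 0.473, 0.797 and 0.397). ATP5G1 was thus called in none of the 4 comparisons. Without the libraries numbered 2, no call of ATP5G2 or ATP5G3 held (adjusted p = 0.206 and 0.393 for ATP5G2 with ID2 and ID4, and 0.35 and 0.306 for ATP5G3 with ID1 and ID2). The calls of ATP5G2 were also lost without those numbered 1 (adjusted p = 0.29 and 0.169), and those of ATP5G3 without those numbered 3 (adjusted p = 0.217 and 0.285).

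Summed over the subunit genes of each complex, the group means differed from GFP by -12.1% (complex II with ID3) to 4.87% (complex V with ID4). The 36 complex I genes summed to 5716 ± 28.2 CPM with GFP (SD, n = 3), and the ID1 and ID4 libraries were all lower, with means that differed from GFP by -3.24% and -2.55% (5530.2 ± 17.9 and 5569.7 ± 61.2 CPM). With ID2 and ID3 the complex I sums overlapped GFP, with 5696 ± 181 and 5591 ± 187 CPM. The 4 complex II genes summed to 295 ± 2.53 CPM with GFP, 280.0 ± 11.5 with ID1, 265 ± 15.1 with ID2, 259 ± 9.27 with ID3 and 269 ± 12.8 with ID4, and all 12 ID libraries were below GFP. These means differed from GFP by -5.00%, -10.1%, -12.1% and -8.63%. SDHA alone made up 157 ± 3.08 CPM of the GFP sum, and without SDHA the direction turned. The other 3 genes summed to 138 ± 2.43 CPM with GFP, 152 ± 8.64 with ID1, 142 ± 18.1 with ID2, 141 ± 6.15 with ID3 and 152 ± 8.72 with ID4, with all ID1 and ID4 libraries above GFP and overlap with ID2 and ID3. The 8 complex III genes summed to 2709 ± 12.8 CPM with GFP, 2545 ± 40.9 with ID1, 2567 ± 80.0 with ID2, 2499 ± 87.8 with ID3 and 2581 ± 69.0 with ID4, again with all 12 ID libraries below GFP. These means differed from GFP by -6.04%, -5.24%, -7.75% and -4.74%. UQCRB alone made up 1211 ± 16.9 CPM with GFP. Without UQCRB, the other 7 genes summed to 1498 ± 27.6 CPM with GFP, 1470.4 ± 20.3 with ID1, 1556 ± 101 with ID2, 1533 ± 61.6 with ID3 and 1483 ± 22.8 with ID4, so that every ID group overlapped GFP and the means with ID2 and ID3 were above it.

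The sums of complexes IV and V were above GFP in part of the groups, and NDUFA4 makes up most or all of the complex IV difference. NDUFA4 alone was at 173 ± 10.9 CPM with GFP and 245, 251, 248 and 232 with ID1 to ID4, and no sum was made without it. The 10 complex IV genes summed to 2317 ± 41.2 CPM with GFP and 2386 ± 7.70 with ID4, without overlap, and with ID1, ID2 and ID3 they summed to 2368 ± 30.5, 2393 ± 61.5 and 2342 ± 51.4, with overlap. This sum leaves out the complex IV gene COX4I1, which the rule does not take and whose mean was lower with each label. COX4I1 was at 522 ± 33.6 CPM with GFP and 459, 459, 502 and 467 with ID1 to ID4. The rise of the sum therefore does not stand for the whole complex. The 15 complex V genes summed to 5477 ± 72.9 CPM with GFP and lay above GFP in every ID2 and ID4 library, at 5717 ± 63.9 and 5744 ± 41.4. With ID1 and ID3 the complex V sums of 5643 ± 91.2 and 5429.6 ± 162 overlapped GFP. The means differed from GFP by 2.21%, 3.28%, 1.09% and 2.99% for complex IV and by 3.04%, 4.39%, -0.859% and 4.87% for complex V, with ID1 to ID4. No test was made of these sums.

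**Figure D3:**
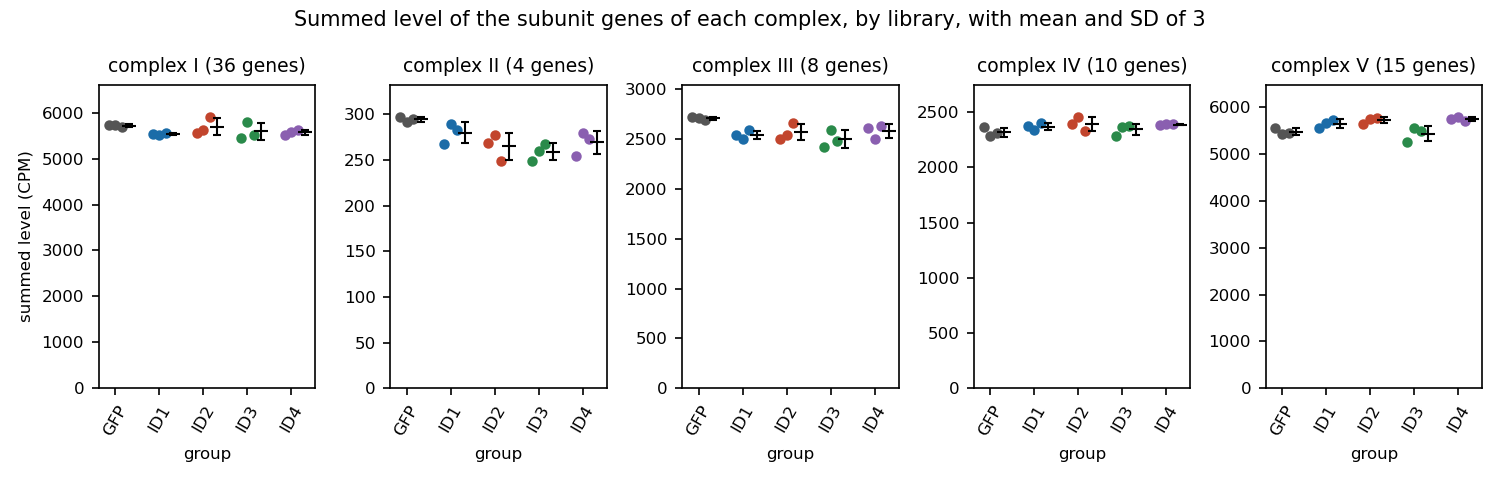
Summed CPM of the subunit genes of each complex, with 1 point for each library and the mean and SD of 3 libraries as bars, on axes that start at 0. The complex II and complex III sums of all 12 ID libraries lie below GFP, which is not so without SDHA in complex II or without UQCRB in complex III, and the complex V sums of ID2 and ID4 lie above it.

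The ID groups were also compared with each other. Their differences do not use the GFP means, but the fit over all 15 libraries takes the spread from GFP too. When only the 2 groups compared were fitted, 14 members were called in place of 7 for ID1 and ID3, 1 in place of 11 for ID2 and ID3, and 4 in place of 10 for ID2 and ID4. Between ID1 and ID2, 2 members were higher and 10 lower with ID1, where 8.90% of all tested genes were called higher and 9.74% lower, and with the library total alone as scaling the split was 6 and 8. Between ID1 and ID3, 3 were higher and 4 lower with ID1 (4.46% and 4.72% of all genes), and between ID2 and ID3, 7 were higher and 4 lower with ID2 (7.58% and 7.46% of all genes). The library total alone gave 2 and 5 for ID1 and ID3, and 6 and 6 for ID2 and ID3. Between ID2 and ID4, 6 were higher and 4 lower with ID2 (9.53% and 9.07% of all genes), and between ID3 and ID4, 3 were higher and 6 lower with ID3 (5.49% and 5.77% of all genes), and the library total alone gave 4 and 7, and 3 and 3. Between ID1 and ID4, edgeR called 0 members, where 2.31% of all genes were called higher and 2.56% lower. At an unadjusted p under 0.05, 7 members passed between ID1 and ID4, and DESeq2 called 2 and limma 1. Without the libraries numbered 1, 2 and 3 in turn, the count was 0, 0 and 11 for ID1 and ID3, 2, 4 and 16 for ID2 and ID3, 4, 3 and 5 for ID2 and ID4, and 1, 1 and 18 for ID3 and ID4, and without those numbered 2 it was 6 for ID1 and ID2.

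Of the members called between ID2 and another label, 7 of 12 (ID1), 7 of 11 (ID3) and 7 of 10 (ID4) were complex I genes, which make up 36 of the 79. This is 19.4% of the complex I genes each time, near the 18.6%, 15.04% and 18.6% of all tested genes. NDUFB2 and NDUFA8, described above, differed between ID2 and each of the other 3 labels. NDUFA8, a subunit on the intermembrane side, was at 59.7, 65.5 and 66.0 CPM with ID2, below every library of the other groups, and its log2 difference was 0.33 for ID1 against ID2, -0.34 for ID2 against ID3 and -0.27 for ID2 against ID4 (adjusted p = 0.000815, 0.00086 and 0.00476). NDUFB7, another subunit on that side, was measured at 351, 315 and 344 CPM with GFP, 317, 327 and 287 with ID1, 281, 277 and 381 with ID2, 421, 461 and 341 with ID3, and 277, 309 and 313 with ID4. Its spread within ID2 and ID3 was wide, and it was higher with ID3 than with ID1 (log2 difference of ID1 from ID3 -0.39) and than with ID4 (0.44; adjusted p = 0.0189 and 0.00752), without passing against GFP (0.27, adjusted p = 0.0503). With the libraries numbered 1 or 2 left out, the differences of NDUFB7 between ID3 and ID1 (adjusted p = 0.192 and 0.192) and ID4 (adjusted p = 0.207 and 0.129) passed no threshold, nor did that of NDUFA8 between ID2 and ID4 (adjusted p = 0.157 and 0.0602). NDUFA8 and NDUFB7 were named after their values were seen.

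Genes beside some members on the chromosome moved as the members did. For each member, the median log2 fold change of up to 25 tested genes on either side was taken, on GRCh37. Around NDUFA4 on chromosome 7 these medians were 0.06, 0.00, -0.03 and 0.02 with ID1 to ID4, against 0.50 with ID1, 0.54 with ID2, 0.52 with ID3 and 0.42 with ID4 for the gene itself, and around SDHA on chromosome 5 they were -0.06, -0.07, -0.09 and -0.08. Both genes thus moved apart from their neighbours. Around COX5A on chromosome 15 the medians were 0.35, 0.35, 0.39 and 0.43, at or above the values of COX5A. Around NDUFA9 and ATP5B, both on chromosome 12, they were 0.33, 0.37, 0.23 and 0.34 and 0.17, 0.23, 0.19 and 0.21, and ATP5B rose more than its neighbours in each comparison. On chromosome 10 the neighbours of NDUFB8 had medians of -0.19, -0.23, -0.10 and -0.18, and on chromosome 8 those of UQCRB had -0.05, -0.20, -0.13 and -0.08. With the 8 members on chromosomes 10, 12 and 15 left out, 5 members were called with ID1 (2 higher and 3 lower), 25 with ID2 (14 and 11), 19 with ID3 (5 and 14) and 10 with ID4 (4 and 6). The part of regional shifts in the rise of COX5A, NDUFA9 and ATP5B was not tested.

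**Figure D4:**
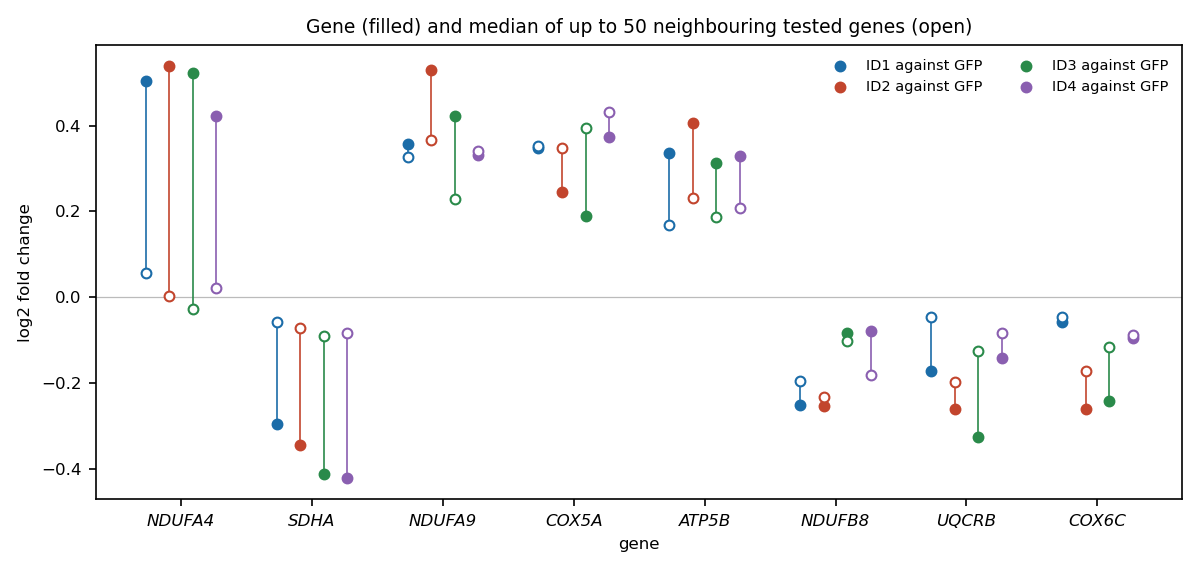
Log2 fold change against GFP of 8 genes (filled) and the median of up to 50 neighbouring tested genes on the same chromosome (open), with 1 color for each ID label. NDUFA4 and SDHA lie far from their neighbours, and COX5A lies at or below its own.

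Other genes of the pathway were taken from lists by role. Of the 68 calls of such genes named below or above, 36 held with each set of libraries left out. Of 9 tested subunits and carriers outside the rule, 1 rose and 3 fell with ID1, 2 rose and 2 fell with ID2, 1 rose and 1 fell with ID3, and 1 rose and 2 fell with ID4. That is 4, 4, 2 and 3 of 9 called, where 22.1%, 35.1%, 28.6% and 21.6% of all tested genes were called. CYCS, cytochrome c, rose by 0.35 with ID1, 0.14 with ID2, 0.20 with ID3 and 0.21 with ID4 (adjusted p = 4.96e-06, 0.02, 0.00228 and 0.00144), from 322, 308 and 319 CPM with GFP to 401, 393 and 415 with ID1. COX4I1, the largest nuclear subunit of complex IV, had log2 fold changes of -0.19 with ID1, -0.19 with ID2, -0.06 with ID3 and -0.16 with ID4 (adjusted p = 0.0172, 0.0108, 0.477 and 0.0417) and so fell with ID1, ID2 and ID4. CYC1, the cytochrome of complex III, was at 178 ± 12.4 CPM with GFP and was not called (log2 fold changes 0.08 with ID1, -0.03 with ID2, -0.01 with ID3 and -0.04 with ID4). All 3 calls of COX4I1 were lost without the libraries numbered 1 (adjusted p = 0.117, 0.261 and 0.321) or 2 (adjusted p = 0.225, 0.152 and 0.249), and those of CYCS with ID2 and ID3 without those numbered 2 (adjusted p = 0.285 and 0.093).

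Among 15 assembly factors of complex I, 1 rose and 0 fell with ID1, 1 and 2 with ID2, 2 and 2 with ID3, and 2 and 1 with ID4. That is 1, 3, 4 and 3 of 15 called, where 22.1%, 35.1%, 28.6% and 21.6% of all tested genes were called. NDUFAF3, which acts early in building the matrix arm, rose from 20.9, 22.3 and 21.2 CPM with GFP by 0.53 with ID1, 0.65 with ID2, 0.57 with ID3 and 0.30 with ID4 (adjusted p = 7.13e-05, 2.43e-06, 2.27e-05 and 0.0162; 0.164 and 0.121 with ID4 without the libraries numbered 2 and 3). Among 34 assembly factors of complexes II to V, 2 rose and 5 fell with ID1, 4 and 6 with ID2, 3 and 5 with ID3, and 2 and 3 with ID4. That is 7, 10, 8 and 5 of 34 called, beside the same shares of all tested genes. SDHAF2, which inserts the flavin into SDHA, was at 79.1, 68.4 and 72.8 CPM with GFP, 61.8, 62.3 and 59.6 with ID1, 58.7, 58.5 and 63.0 with ID2, 66.9, 61.0 and 62.6 with ID3, and 62.2, 57.9 and 58.7 with ID4. No ID library reached the GFP range, and its log2 fold changes were -0.26 with ID1, -0.29 with ID2, -0.21 with ID3 and -0.30 with ID4 (adjusted p = 0.00464, 0.00118, 0.0172 and 0.00164). SDHAF2 was not called with ID1, ID2 or ID3 without the libraries numbered 1 (adjusted p = 0.0909, 0.0509 and 0.103). COX20, a chaperone of a mitochondrially encoded complex IV subunit, fell, with log2 fold changes of -0.35 with ID1, -0.48 with ID2, -0.48 with ID3 and -0.29 with ID4, and the complex IV factors COX14 and COA5 rose, COX14 by 0.23 with ID1, 0.52 with ID2, 0.52 with ID3 and 0.37 with ID4 and COA5 by 0.32 with ID1, 0.35 with ID2, 0.25 with ID3 and 0.29 with ID4. The adjusted p of these 3 genes were between 5.63e-07 and 0.0158. No call of COA5 held without the libraries numbered 2 (adjusted p = 0.0892, 0.0526, 0.124 and 0.0933) and COX20 was then not called with ID4 (adjusted p = 0.0854), and without those numbered 1 COX14 was not called with ID1 (adjusted p = 0.143).

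Of 14 regulators of mitochondrial gene expression, 2 rose and 3 fell with ID1, 2 and 4 with ID2, 1 and 3 with ID3, and 3 and 2 with ID4. That is 5, 6, 4 and 5 of 14 called, where 22.1%, 35.1%, 28.6% and 21.6% of all tested genes were called. PPARGC1A encodes the coactivator PGC-1α, known to raise respiratory genes, and its level was very low, with 2 to 45 counts per library. It was measured at 0.559, 1.00 and 0.169 CPM with GFP, 2.30, 2.75 and 2.87 with ID1, 1.84, 1.82 and 1.84 with ID2, 3.04, 2.91 and 3.12 with ID3, and 1.70, 1.98 and 1.37 with ID4. All 12 ID libraries lay above GFP, and PPARGC1A rose by 2.17 with ID1, 1.65 with ID2, 2.37 with ID3 and 1.52 with ID4 (standard errors 0.32 to 0.36; adjusted p = 3.60e-05, 0.000724, 7.66e-06 and 0.0038). PPRC1, a related coactivator, fell from 36.6, 42.5 and 40.5 CPM with GFP, with log2 fold changes of -0.44 with ID1, -0.48 with ID2, -0.42 with ID3 and -0.28 with ID4 (adjusted p = 0.00047, 8.95e-05, 0.000499 and 0.018). The calls with ID4 were lost for PPARGC1A without the libraries numbered 1 (adjusted p = 0.0832) and for PPRC1 without any 1 of the 3 numbers (adjusted p = 0.0551, 0.0788 and 0.106).

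TFAM, which packs and transcribes mitochondrial DNA, was measured at 101, 114 and 117 CPM with GFP, 95.7, 91.3 and 96.1 with ID1, 73.9, 74.0 and 67.1 with ID2, 72.1, 78.6 and 83.3 with ID3, and 102, 95.4 and 109 with ID4. The ID2 and ID3 libraries were the lowest 6, and those of ID4 overlapped GFP. TFAM log2 fold changes were -0.23 with ID1, -0.63 with ID2, -0.51 with ID3 and -0.12 with ID4 (adjusted p = 0.0186, 3.50e-07, 1.02e-05 and 0.263), so that it passed with ID1, ID2 and ID3, with ID1 not without the libraries numbered 2 (adjusted p = 0.239). NRF1, a transcription factor of many respiratory genes, was at 11.1 ± 0.591 CPM with GFP and was called in none of the 4 comparisons (log2 fold changes 0.02 with ID1, -0.11 with ID2, -0.12 with ID3 and -0.07 with ID4). GABPA, a second such factor, changed by -0.56 with ID2 (adjusted p = 0.00654), where its libraries were at 20.9, 20.1 and 11.1 CPM against 23.7, 24.8 and 28.4 with GFP, so that the library numbered 3 stood apart (adjusted p = 0.0933 without those numbered 3). GABPA and ATP5J start beside each other on chromosome 21. ESRRA, a nuclear receptor that works with PGC-1α, fell with ID2 and ID3 (log2 fold changes -0.22 and -0.17, adjusted p = 0.0065 and 0.0368). Its call with ID2 was lost without the libraries numbered 3 (adjusted p = 0.075) and that with ID3 without those numbered 1 or 2 (adjusted p = 0.242 and 0.154).

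**Figure D5:**
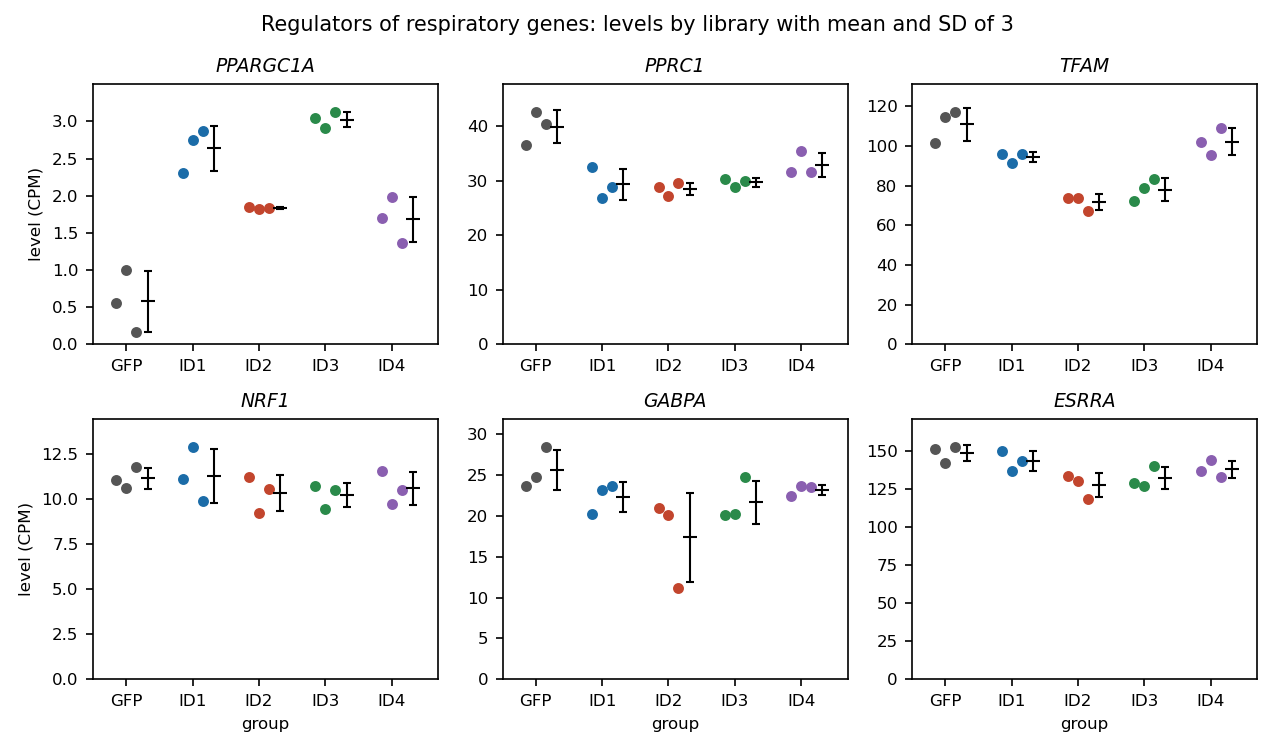
Level in CPM of 6 regulators of respiratory genes in each library (points) by group, with the mean and SD of 3 libraries as bars. PPARGC1A is higher and PPRC1 lower in all 12 ID libraries than in GFP, TFAM is lowest with ID2 and ID3, and the groups overlap in NRF1.

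Of 19 genes of pyruvate entry and the citric acid cycle, which supplies the chain with NADH and succinate, 7 rose and 1 fell with ID1, 8 and 2 with ID2, 5 and 2 with ID3, and 5 and 1 with ID4. These are 42.1%, 52.6%, 36.8% and 31.6% of the list, against 22.1%, 35.1%, 28.6% and 21.6% of all tested genes. The mitochondrial pyruvate carrier is a pair of proteins whose genes went in opposite directions. MPC1 rose by 0.44 with ID1, 0.58 with ID2, 0.34 with ID3 and 0.36 with ID4 (adjusted p = 0.0131, 0.000715, 0.0457 and 0.0433), from 13.3, 11.8 and 11.7 CPM with GFP. MPC2 fell from 101, 100.3 and 96.0 CPM with GFP to 54.9, 59.2 and 70.5 with ID1, and its log2 fold changes were -0.69 with ID1, -0.64 with ID2, -0.48 with ID3 and -0.61 with ID4 (adjusted p = 2.41e-06, 3.19e-06, 0.000148 and 1.41e-05). SUCLG1, a subunit of the enzyme that makes succinate, rose by 0.24 with ID1, 0.33 with ID2, 0.26 with ID3 and 0.27 with ID4 (adjusted p = 0.01, 0.000379, 0.00436 and 0.00392), while SDHA, which oxidizes the succinate, fell in the same libraries. MPC1 was not called with ID1, ID3 and ID4 without the libraries numbered 2 (adjusted p = 0.147, 0.106 and 0.336), and without those numbered 1 SUCLG1 was not called with ID1 (adjusted p = 0.106). The 4 calls of MPC2 held with each set left out.

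Of 77 tested mitochondrial ribosomal protein genes, whose products make the mitochondrially encoded subunits, 7 rose and 8 fell with ID1, 6 rose and 22 fell with ID2, 3 rose and 18 fell with ID3, and 3 rose and 11 fell with ID4. With both directions together these are 19.5%, 36.4%, 27.3% and 18.2% of the list, near the 22.1%, 35.1%, 28.6% and 21.6% of all tested genes. By direction the list differed more, mainly with ID2, ID3 and ID4. Called higher were 9.09%, 7.79%, 3.90% and 3.90% of the list, against 12.4%, 18.5%, 15.1% and 12.1% of all genes. Called lower were 10.4%, 28.6%, 23.4% and 14.3%, against 9.73%, 16.7%, 13.5% and 9.51%. Their median log2 fold changes were -0.02, -0.10, -0.09 and -0.06. MRPL51 rose in each comparison (0.33 with ID1, 0.42 with ID2, 0.34 with ID3 and 0.34 with ID4), and MRPL17 fell in each (-0.21 with ID1, -0.18 with ID2, -0.24 with ID3 and -0.26 with ID4). The calls of MRPL51 held with each set of libraries left out, and those of MRPL17 with ID1, ID2 and ID3 were lost without the libraries numbered 2 (adjusted p = 0.0868, 0.0726 and 0.0607). Over all 168 tested genes of these lists, 40, 61, 46 and 36 were called with ID1 to ID4 (23.8%, 36.3%, 27.4% and 21.4%, with both directions together again near the shares of all genes), and without the libraries numbered 2 these counts were 20, 35, 21 and 18. The list of pyruvate entry and the citric acid cycle, given above, lay above those shares.

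Several members belong to families with many copies in the genome, which can take part of their reads. Of the 73 subunit genes, 47 have at least 1 pseudogene named after them in the GENCODE annotation, most for COX6C, with 17. UQCRHL, a near copy of UQCRH, was at 89.2 ± 2.54 CPM with GFP and was called in none of the comparisons with GFP, and ATP5S was at 8.27 ± 0.870 CPM, with -0.39 with ID3 (adjusted p = 0.058). Values of UQCRB, UQCRH, ATP5E, COX6C and SDHA are therefore uncertain to the extent that copies share their reads.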

How the data were processed

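RNA of U87MG cells was prepared with the QuantSeq 3′ kit and sequenced by a service company, and 15 libraries in 5 groups of 3 were analysed. The authors deposited 1 table with raw read counts per gene symbol and with log2 values of the counts that they normalized between libraries, per the file headers by quantiles. The submitters' processing notes name Bowtie2, BWA and hg19, and the role of each aligner, the counter and the annotation are not given in the sources used here.

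Counts were scaled by TMM and tested with edgeR 4.0.16 in R 4.3.3, by the quasi-likelihood test with 1 mean per group over all 15 libraries and Benjamini-Hochberg adjustment over the 12870 genes in the upper 50% by mean deposited log2 value (threshold 0.05). Alternatives used limma 3.58.1 and DESeq2 1.42.0. Figures and sums were made with Python 3.11.15 and matplotlib 3.10.9, and the testing code was checked on simulated counts. Coordinates came from GENCODE 44 lifted to GRCh37, with 22331 of the 25737 entries matched by symbol and 1418 by a RefSeq synonym. CPM of libraries with 11089044 to 15148979 counts carry counting error beside the spread between libraries, and whether the counting used strand is not given in the sources used here, so overlapping genes may share reads.

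Members and lists were chosen with earlier results of these data known. Genes were named where they were among the 4 highest and 4 lowest called members without overlap in a comparison with GFP, called in 1 direction in all 4, highest in their complex, in complex II, encoding subunit c, an isoform pair, or next to the count minimum, and other genes of the pathway where called in all 4 or of known role. Some genes that the rule names are not reported here. The labels do not say whether the replicate numbers pair the libraries. Same-numbered ID and GFP libraries had correlations of deviations from -0.16 to 0.12, and ID groups were not compared with each other in this way.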

Additional observations from a re-analysis of the deposited data

Results flagged for a closer look

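NDUFB1, a small subunit of the membrane arm of complex I, differed between ID1 and ID2 in the direct comparison of these groups, with a log2 difference of -0.31 for ID1 against ID2 (adjusted p = 0.000159 in edgeR's quasi-likelihood test). Against GFP its log2 fold change was -0.15 with ID1 and 0.16 with ID2, so the groups lay on opposite sides of the control, with 3 of 3 ID1 libraries below all GFP libraries and 3 of 3 ID2 libraries above them. Each comparison with GFP lost its call when some libraries were left out, as given above, and the direct difference held each time (adjusted p = 0.00493, 0.0163 and 0.00214).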

How the results depend on the processing

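The 4 counts of members called against GFP (9, 31, 22 and 14 with ID1 to ID4) stayed within 1.5 times their value under the stricter filter, no filter, the other scalings, DESeq2, limma and members over 100 counts. Fitting only the 2 groups compared gave 17 with ID1 and 20 with ID2, leaving out chromosomes 10, 12 and 15 gave 5 with ID1, and asking also for a log2 change over 0.5 gave 1, 2, 1 and 0. Leaving out 1 replicate number gave 6 to 14, 18 to 28, 9 to 24 and 5 to 18. These last fits hold fewer libraries, and the causes of the other shifts were not tested. Between ID groups, the fold requirement gave 0 for ID1 and ID2, ID1 and ID3, ID2 and ID3, ID2 and ID4, and ID3 and ID4. Fitting only the 2 groups gave 14 for ID1 and ID3, 4 for ID1 and ID4, 1 for ID2 and ID3 and 4 for ID2 and ID4. Between ID1 and ID4, where the main count was 0, the upper 25% of genes gave 2, median-of-ratios size factors 1, DESeq2 2 and limma 1. Leaving out 1 replicate number gave 6 to 9 (ID1 and ID2), 0 to 11 (ID1 and ID3), 0 to 1 (ID1 and ID4), 2 to 16 (ID2 and ID3), 3 to 5 (ID2 and ID4) and 1 to 18 (ID3 and ID4).

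With the replicate number as a block, 9, 29, 18 and 10 members were called against GFP, and 10, 3, 0, 11, 7 and 5 in the 6 comparisons between ID groups in the order above. The block moved the count for ID1 and ID3 (from 7 to 3) and for ID3 and ID4 (from 9 to 5) by more than 1.5 times. As far as the labels say, the libraries share only a number.

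The median log2 change with ID2 was 0.0145 with the library total as scaling and 0.00856 without chromosomes 10, 12 and 15, and when a replicate number was left out, the medians with ID1 to ID4 ran from -0.0334 to -0.00169, 0.0172 to 0.0352, -0.0402 to 0.0265 and -0.0228 to -0.00443, the highest with ID1, ID3 and ID4 without the libraries numbered 1. With the library total as scaling, the summed CPM differed from GFP by -2.20% for complex I with ID1 and by 3.18% for complex V with ID2. The complex II sum without SDHA differed by 10.3%, 2.65%, 2.28% and 10.4% with ID1 to ID4, and the complex III sum without UQCRB by -1.87%, 3.82%, 2.28% and -1.04%. Leaving out a replicate number gave -3.67% to -2.98%, -2.43% to 0.977% and -3.93% to -0.752% for complex I with ID1, ID2 and ID3, -7.06% to -2.45% for complex II with ID1, -0.17% to 3.38% and 2.11% to 4.21% for complex IV with ID3 and ID4, and 1.98% to 4.75%, 3.65% to 5.87%, -2.38% to 1.60% and 4.03% to 5.69% for complex V with ID1 to ID4. The pathway lists gave 20 to 36, 35 to 58, 21 to 44 and 18 to 39 called genes. These settings for sums and lists were chosen after seeing the data.

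Of 1384 recomputed values of 29 named members, 1209 kept their direction and side of the threshold, 130 lost the call, 21 gained it and 24 changed sign, none of them from a called value. With ID1, leaving out a replicate number moved ATP5F1 from -0.18 to 0.00395 and SDHD from -0.17 to 0.13. With ID2, NDUFA1 ran from -0.0252 to 0.16, ATP5L from -0.0431 to 0.0362, SDHB from -0.25 to 0.00957, SDHD from -0.43 to 0.22, COX6A1 from -0.0207 to 0.039, ATP5G1 from -0.0906 to 0.15 and ATP5S from -0.0669 to 0.0041. With ID3, NDUFB1 ran from -0.0263 to 0.0288. With ID4, NDUFB1 ran from -0.0147 to 0.0387, NDUFA1 from -0.0117 to 0.0513, SDHB from -0.0889 to 0.0806, SDHD from -0.10 to 0.073 and ATP5S from -0.35 to 0.0189. NDUFA1 with ID1 was 0.00286 with the library total. With ID2, ATP5L was -0.00144, -0.0139 and -0.0014 and COX6A1 -0.00128, -0.0146 and -0.00171 with median-of-ratios factors, the library total and DESeq2. Depth limits the lowest members, and SDHD had the widest spread within groups, at 19.7%.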
